A study of Caenorhabditis elegans with 4 samples.

Results

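The regions described here are those on chromosome IV that were recovered with CEH-30::GFP from late embryos of Caenorhabditis elegans. They were chosen by position alone, as every entry of the authors' list that lies on IV. There were 1033 of them among 6672 regions on 6 chromosomes, which is 15.5% of the list (95% Wilson interval 14.6% to 16.4%). IV makes up 17.5% of the length spanned by the list. Intervals in this text cover counting error only, and they are too narrow where regions lie in groups.

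The study used chromatin immunoprecipitation followed by sequencing (ChIP-seq), with 2 ChIP samples and 2 input samples of sonicated chromatin. All 4 came from strain OP120, whose genotype is unc119(ed3) with the transgene wgIs120. That transgene, introduced by bombardment and outcrossed, holds ceh-30 joined to TY1, EGFP and FLAG tags, together with unc119. The worms were labelled as hermaphrodite and grown at 20 °C, and an affinity-purified goat serum against GFP took down the chromatin. Every sample carried the tagged protein, so recovery through CEH-30 and other recovery by the serum cannot be told apart. The authors combined the samples into 1 list, which has no value per sample, so no spread between replicates can be given and the read depth behind a region is unknown. Regions are not replicates, and no test was run over them. Every comparison below is therefore a description of this list.

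CEH-30 belongs to the Bar family of homeodomain transcription factors and is known for keeping the CEM sensory neurons of males alive. Worm autosomes have no single centromere. Each has a central domain with many broadly expressed genes and little recombination, between a pair of arms that are richer in repeats, recombine more and often lie at the nuclear lamina. Chromosome IV is also known for carrying most genes for piRNAs, the small RNAs that guide the Argonaute protein PRG-1 in the germ line. Positions are given in WormBase release WS180, counted from 1. No gene, exon or intron was assigned to a region, as the gene table at hand belongs to a later assembly.

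The regions of IV were mostly short and close to the significance limit of the list. The middle width was 175 bp, and the quartiles were 72 and 292 bp. Strength is used for the −log10 of the q-value that the authors gave each region, a significance adjusted for the number of regions tested. Its median was 3.24, between quartiles of 2.51 and 4.97. In total they covered 242.6 kb, or 1.39% of the 17.5 Mb from the chromosome's first base to the end of its last region. The first region began at base 51163 and the last ended at base 17461603.

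Set against the other 5 chromosomes together, IV was thinner in regions and its median region was weaker but of similar width, and chromosomes V and X lay near it. IV held 59.2 regions per Mb and the other 5 chromosomes 68.3 per Mb, a ratio of 0.866 (95% interval 0.810 to 0.926). The median strength was 3.24 on IV (95% interval 3.15 to 3.36) and 3.52 on the others (3.46 to 3.59). The median width was 175 bp on IV (166 to 188 bp) and 174 bp on the others (168 to 179 bp). Of the IV regions, 75 or 7.26% were among the best 10% of the list's q-values (95% Wilson interval 5.83% to 9.01%), against 10.5% of the regions elsewhere. Chromosome V was thinner still, with 51.8 regions per Mb, a median strength of 3.26 and 7.78% among the best 10%, and X had 61.1 per Mb, 3.09 and 7.58%. The other 3 chromosomes had 70.9 to 84.4 per Mb. Regions wider than 1 kb made up 1.06% of IV, 11 regions, where the share of the whole list is 0.959%. Regions under 20 bp made up 10.6% of IV, 110 regions, where the share of the whole list is 11.8%. Just 9 regions of IV were a single base wide (0.871%, 95% Wilson interval 0.459% to 1.65%), against 102 (1.81%) elsewhere. IV also holds the weakest entry of all 6672, a region of 240 bp at 14260828 to 14261067 with a strength of 2.00.

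The lower density of IV did not run along its whole length. In the first 25% of the span, IV had 68.5 regions per Mb and the other 5 chromosomes together had 56.3. In the middle, from 25% to 75% of the span, IV had 58.3 per Mb and the others 73.2. In the last 25%, IV had 51.5 per Mb and the others 70.5. With each chromosome cut into 20 equal parts, IV lay above the mean of the others in all of its first 5 parts and in 1 of the 15 that followed. In 8 of those 15 parts IV was below each of the other 5 chromosomes, and in 0 of the 20 was it above each of them. This cut was chosen after the values were seen.

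**Figure D1:**
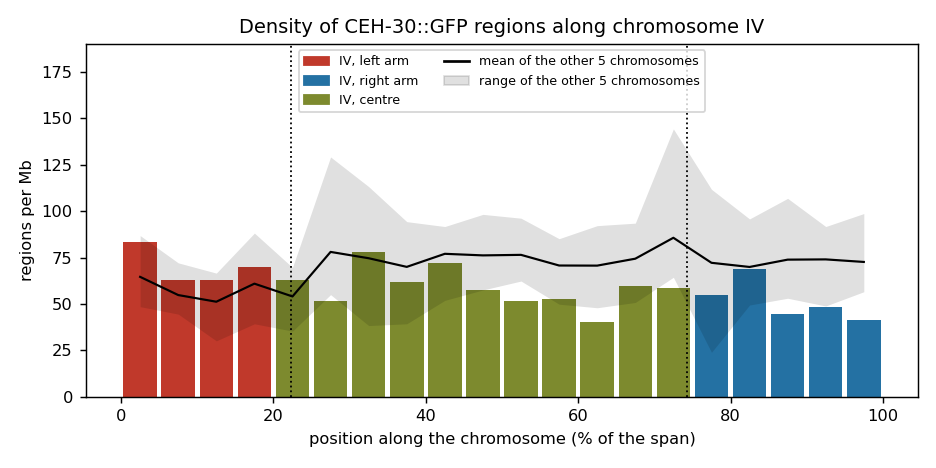
Bars show the regions of IV per Mb in 20 equal parts of the span, coloured by the zone of the part's middle, and dotted lines mark the zone borders. The black line is the mean of the other 5 chromosomes and the shading their range; the left end of IV (83.6 regions per Mb in the first part) stands above that line and most of the rest of IV below it.

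The chromosome was divided by region midpoint into a left arm below 3.896 Mb, a right arm above 12.970 Mb and the centre between these borders. Both borders fell in long stretches without any region. The left border lay in a gap of 143.4 kb, from 3874864 to 4018245, and the right border in one of 104.6 kb, from 12867350 to 12971914. Moving either border within its gap would therefore put every region in the same zone. The last left-arm region, at 3874732 to 3874863, was 132 bp wide with a strength of 3.15, and the first region of the centre, at 4018246 to 4018340, was 95 bp wide with 3.29. At the other border, the first right-arm region, at 12971915 to 12971947, was 33 bp wide with a strength of 2.24. The last region of the centre, at 12867321 to 12867349, was 29 bp wide with a strength of 2.44.

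Averaged over each zone, regions were densest in the left arm. The left arm held 282 regions in 3.896 Mb, or 72.4 per Mb, and the right arm 242 in 4.49 Mb, or 53.9 per Mb. The centre held 509 regions in 9.074 Mb, or 56.1 per Mb. The density of the left arm was 1.29 times that of the centre (95% interval 1.11 to 1.495) and 1.34 times that of the right arm (1.13 to 1.60). The ratio of the right arm to the centre was 0.960 (0.821 to 1.12), an interval that holds 1. The first megabase was the densest full megabase of the chromosome, with 84 regions. Without it, the left arm still held 68.4 per Mb. Across the 17 full megabases the count ranged from 42 to 84 with a median of 63, and the lowest was that of 15 to 16 Mb in the right arm.

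The surplus of the left arm consisted of narrow and moderately wide regions. Regions under 400 bp numbered 68.8 per Mb in the left arm, 45.4 per Mb in the right arm and 49.2 per Mb in the centre, which puts the left arm at 1.40 times the centre (95% interval 1.198 to 1.63). Regions of 400 bp or more went the other way, with 3.59 per Mb in the left arm, 8.46 per Mb in the right arm and 6.94 per Mb in the centre. For these, the ratio to the centre was 0.518 for the left arm (0.268 to 0.934) and 1.22 for the right arm (0.793 to 1.85). As a share of the zone's regions, 14 or 4.96% reached 400 bp in the left arm (95% Wilson interval 2.98% to 8.16%), against 38 or 15.7% in the right arm (11.7% to 20.8%) and 63 or 12.4% in the centre (9.79% to 15.5%). All 3 zones together give 115 of the 750 regions of that width in the list. That is 11.1% of the IV regions, and on the other 5 chromosomes the share was 11.3%.

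Median widths differed by less than their intervals. The median was 160 bp in the left arm (135 to 181 bp), 168.5 bp in the right arm (135 to 200 bp) and 188 bp in the centre (172 to 198 bp). The lower quartile was 59.3 bp in the left arm, 61.0 bp in the right arm and 96.0 bp in the centre. Regions of 20 to 99 bp made up 22.3% of the left arm, 24.4% of the right arm and 15.9% of the centre. On the other 5 chromosomes their share was 20.1%. Regions under 20 bp made up 12.4% of the left arm, 9.92% of the right arm and 10.02% of the centre, where the share of the whole list is 11.8%.

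Median strengths of the 3 zones differed by less than their intervals. The median was 3.30 in the left arm (95% interval 3.04 to 3.53), 3.17 in the right arm (2.99 to 3.34) and 3.27 in the centre (3.14 to 3.49), and the 3 intervals overlap. The best 10% of the list's q-values included 7.09% of the left-arm regions, 7.02% of the right-arm regions and 7.47% of those in the centre. At a q-value below 1e-05 the shares of the zones lay further apart, though their intervals overlap. All were below the 30.3% of the other 5 chromosomes together, which the left-arm interval holds. Singly, V had 26.5% and X 23.6%, near the zones of IV, while I had 34.3%, II 30.6% and III 35.9%. A q-value below 1e-05 was reached by 77 regions or 27.3% in the left arm (95% Wilson interval 22.4% to 32.8%), 47 or 19.4% in the right arm (14.9% to 24.9%) and 132 or 25.9% in the centre (22.3% to 29.9%). Per Mb these were 19.8 in the left arm, 10.5 in the right arm and 14.5 in the centre. The ratio to the centre was 1.36 for the left arm (1.01 to 1.81) and 0.719 for the right arm (0.504 to 1.01). For regions of any strength these ratios were 1.29 and 0.960.

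**Figure D2:**
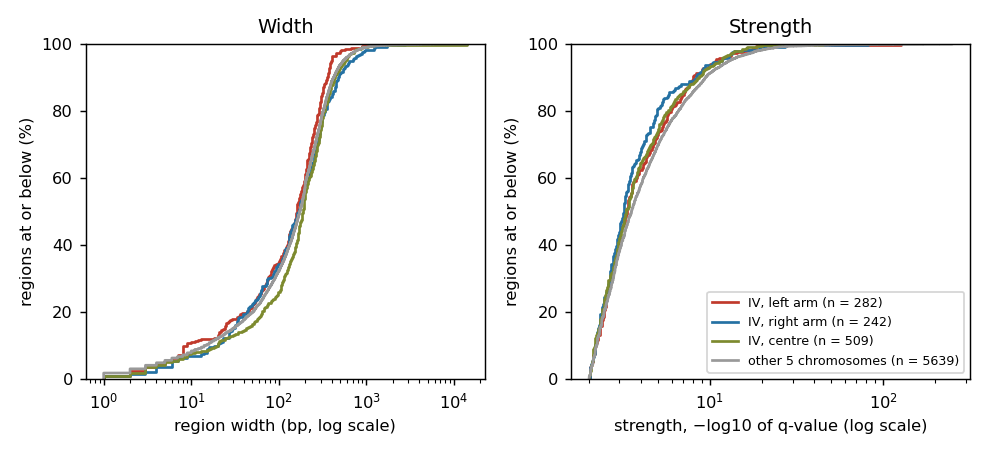
Cumulative shares (%) of regions by width in bp (left panel) and by strength (right panel), both on log axes, for the 3 zones of IV and for the other 5 chromosomes. The left arm reaches its top early on the width axis, since 4.96% of its regions are 400 bp or wider. The right arm runs highest in the middle of the strength axis, and 19.4% of its regions have a q-value below 1e-05. It is not the highest curve at either end.

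From 200 bp upward, median strength was highest in the left arm, though with overlapping intervals. Among regions of 200 to 399 bp, the median strength was 5.55 in the left arm (99 regions, 95% interval 4.70 to 6.06), 3.96 in the right arm (68 regions, 3.40 to 4.80) and 4.19 in the centre (168 regions, 3.67 to 4.84), where the other 5 chromosomes had 5.34. Among regions of 400 bp or more it was 10.7 in the left arm (5.36 to 17.8), 6.03 in the right arm (4.67 to 8.38) and 8.09 in the centre (6.89 to 9.07). In narrower classes the left arm did not stand out. Regions from 100 bp to under 200 bp had medians of 3.01 in the left arm, 2.77 in the right arm and 2.98 in the centre. Regions of 20 to 99 bp had medians of 2.64 in the left arm, 2.69 in the right arm and 2.57 in the centre. Strength and width were correlated across regions in each zone, with a Spearman rho of 0.62 in the left arm (n = 282), 0.56 in the right arm (n = 242) and 0.57 in the centre (n = 509). The caller derives both from the same reads, so these coefficients describe the calling as well as the chromatin.

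**Figure D3:**
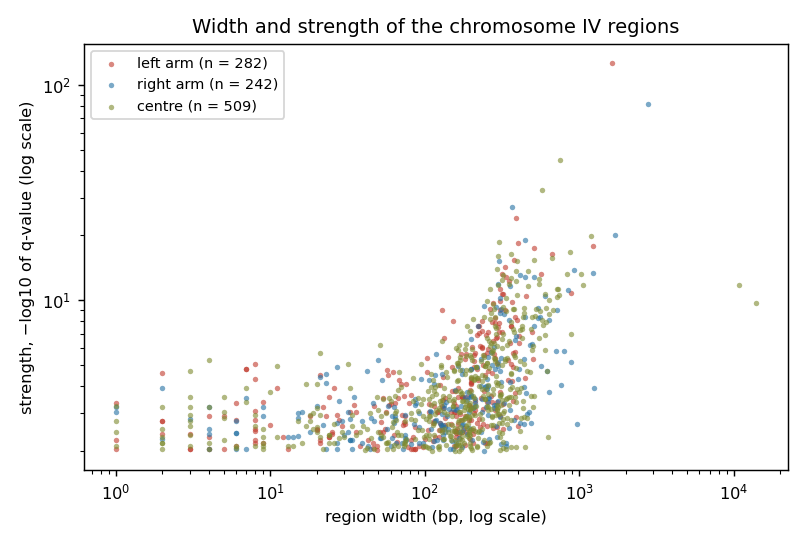
Each point is 1 of the 1033 regions of IV, with width in bp on the x axis and strength on the y axis, both on log scales, coloured by zone. Strength stays at or below 6.17 up to widths of 99 bp and spreads upward from about 200 bp, and the 2 widest regions stand far to the right at strengths of 9.69 and 11.8.

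The 10 strongest regions of IV were spread over all 3 zones, with 2 in the left arm, 4 in the right arm and 4 in the centre. The strongest of all, in the left arm at 1623802 to 1625422, was 1621 bp wide with a strength of 126.1 and ranked 7 in the whole list. A region of the right arm at 14032486 to 14035267 followed with 82.1, a width of 2782 bp and rank 13. The strongest region of the centre, at 5656995 to 5657747, had a strength of 44.7, a width of 753 bp and rank 23. After it came 11025813 to 11026387 in the centre with 32.6 and 17249692 to 17250057 in the right arm with 27.01.

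The remaining 5 of these 10 had strengths between 18.6 and 24.2. They lay at 1659063 to 1659449 in the left arm (24.2), 16491163 to 16492864 in the right arm (20.1), 11593322 to 11594517 in the centre (20.0), 16656165 to 16656612 in the right arm (19.1) and 4749894 to 4750194 in the centre (18.6). The third strongest of the left arm, at 2388916 to 2389318, had a strength of 18.5 and ranked 11 on IV. Widths among the 10 ran from 301 to 2782 bp with a median of 664 bp, and 4 of them exceeded 1 kb.

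The neighbours of the strongest regions were ordinary in strength. Of these 10, 9 had another region within 5 kb, a distance between midpoints, against 57.4% of all IV regions (95% Wilson interval 54.4% to 60.4%). The nearest neighbour had a median strength of 3.07, where all IV regions had 3.24, and 1 of the 10 neighbours exceeded 10. That neighbour, 398 bp wide with a strength of 15.2, lay 1.29 kb from the strongest region of the centre. The strongest region of IV had 4 others within 10 kb, and the nearest of them was 158 bp wide with a strength of 3.01.

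Crowding was a little higher in the left arm. Another region lay within 5 kb of 62.4% of left-arm regions (95% Wilson interval 56.6% to 67.9%), 54.5% of right-arm regions (48.2% to 60.7%) and 56.0% of regions in the centre (51.7% to 60.2%). At 2 kb the order of the arms turned, with 31.9% in the left arm, 33.9% in the right arm and 30.1% in the centre. All of these intervals overlap. For IV as a whole the shares were 57.4% within 5 kb and 31.5% within 2 kb, against 60.6% and 36.7% on the other 5 chromosomes.

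Gaps between neighbouring regions had a median of 7.85 kb in the left arm, 8.77 kb in the right arm and 9.66 kb in the centre, and 8.83 kb over all 1032 gaps of IV. The shortest was 201 bp. At the long end the arms parted. Gaps above 50 kb numbered 9 of 281 in the left arm, 25 of 241 in the right arm and 36 of 510 in the centre. As a share they were thus most frequent in the right arm. Of the 12 gaps above 100 kb, 1 lay in the left arm, 5 in the right arm and 6 in the centre, counting each gap where its midpoint fell. They took up 2.98% of the left arm, 14.3% of the right arm and 8.99% of the centre. Over the whole chromosome they amounted to 1572 kb or 9.002% of the span, against 6.47% on the other 5 chromosomes together. These differed widely, since V had 22 such gaps and 15.9% of its span in them, while I had 0. As the list holds calls below a q-value limit, a gap is a stretch without a call, not one shown to be unbound.

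The longest gap of IV, 228.5 kb from 4810590 to 5039051, was in the centre and ranked 4 in the whole list. The gap at the left border came next. Then followed 3 gaps of the right arm, of 140.8 kb from 16028752 to 16169512, 140.6 kb from 15330794 to 15471370 and 133.7 kb from 13561897 to 13695599. The gap of the left arm measured 116.2 kb, from 3399385 to 3515629. In the right arm a pair of long gaps lay almost next to each other, since that of 111.7 kb from 16181200 to 16292879 began 11.7 kb after the end of the one before it.

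**Figure D4:**
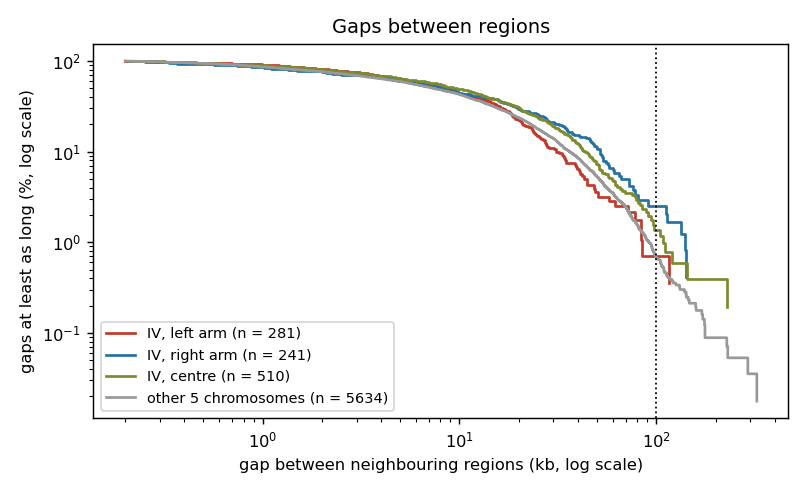
The share of gaps (%) that are at least as long as the length on the x axis (kb), both on log scales, for the 3 zones of IV and for the other 5 chromosomes, with a dotted line at 100 kb. From about 20 to 100 kb, the right-arm and centre curves run above those of the left arm and the other chromosomes. Above 50 kb were 25 of 241 gaps in the right arm, 36 of 510 in the centre and 9 of 281 in the left arm. The longest gaps of all, up to 324.2 kb, lie on the other chromosomes.

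In windows of 50 kb, the same contrast showed as empty stretches. Of the windows, 4 of 78 were empty in the left arm (5.13%), 13 of 91 in the right arm (14.3%) and 17 of 181 in the centre (9.39%). The most crowded window of IV nevertheless lay in the right arm, at 14.60 to 14.65 Mb, with 13 regions where the mean of the chromosome was 2.95. The next, at 13 to 13.05 Mb, also in the right arm, held 12 regions, and that at 0.25 to 0.30 Mb in the left arm held 10. Windows at 1.60 Mb in the left arm and at 4 and 7.90 Mb in the centre held 9 each.

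In these 6 windows the median strengths ran from 2.77 to 3.29, mostly below the 3.24 of IV as a whole. The windows held 62 regions, of which 4 or 6.45% were among the best 10% of the list. The share of all IV regions is 7.26%. The 13 regions at 14.60 Mb had a median strength of 2.77 and a highest of 8.59, and 0 of them were among the best 10% of the list. The 10 regions at 0.25 Mb had a median of 2.78 and a highest of 7.99. The window at 13 Mb had a median of 3.21 and a highest of 13.4, that at 4 Mb 3.29 and 16.1, and that at 7.90 Mb 2.98 and 11.8. The window at 1.60 Mb contained the strongest region of IV, and the median of its 9 regions was 3.01. When regions within 2 kb of each other were joined, the 13 regions at 14.60 Mb became 2 and the 12 at 13 Mb became 8.

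Joining all IV regions with gaps of up to 2 kb turned the 1033 regions into 826 blocks. Of these, 682 were single regions, 108 were pairs and 36 held 3 or more, up to 12. Blocks of several regions contained 32.98% of the left-arm regions, 35.5% of the right-arm regions and 33.8% of those in the centre. For IV as a whole this share was 34.0%, against 39.2% on the other 5 chromosomes. Members of such blocks had a median width of 196 bp (95% interval 174 to 223 bp), against 166.5 bp (154 to 182 bp) for regions that stood alone, while their median strengths were 3.27 (3.09 to 3.57) and 3.22 (3.14 to 3.36). These intervals overlap. The median widths were 163 bp in blocks and 154 bp alone in the left arm, 235 bp (160 to 312 bp) and 140.5 bp (109 to 182 bp) in the right arm, and 196.5 bp and 183 bp in the centre.

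IV had 7 blocks of 5 kb or more, with 2 in the left arm, 3 in the right arm and 2 in the centre. Per 10 Mb these were 5.13 in the left arm, 6.68 in the right arm and 2.20 in the centre. IV as a whole had 4.01 per 10 Mb and the other 5 chromosomes together 4.96, from 2.82 on X to 6.55 on II. The longest block of IV stands apart from its others. It measured 25.01 kb, from 8471404 to 8496413 in the centre, and consisted of only 2 regions, the widest of IV, which were separated by 213 bp. The first was 14044 bp wide with a strength of 9.69 and the second 10753 bp wide with 11.8. The next 5 regions by width, of 1235 to 2782 bp, had strengths from 3.90 to 126.1, and 4 of these 5 were stronger than either of the pair. No block of the other 5 chromosomes was longer than 18.1 kb. Single regions of such width were not confined to IV, since the widest of chromosome V measured 14112 bp.

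The other 6 long blocks were loose groups of 4 to 12 regions, with median member widths from 97.5 to 379.5 bp. In 2 of them, the widest member measured 1621 and 1702 bp. In the right arm, 12 regions covered 26.7% of 12.01 kb from 14610316 to 14622321, and their median strength was 2.77. In the centre, 6 regions covered 15.9% of 7.73 kb from 4018246 to 4025976, directly after the gap at the left border. Other blocks of 6 regions lay in the right arm at 16398227 to 16405394 and at 16488848 to 16494889, with strongest members of 8.27 and 20.1. In the left arm, a block of 4 regions from 1623802 to 1630274 began with the strongest region of IV, and a block of 4 from 3845750 to 3851182 had no member stronger than 2.57.

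**Figure D5:**
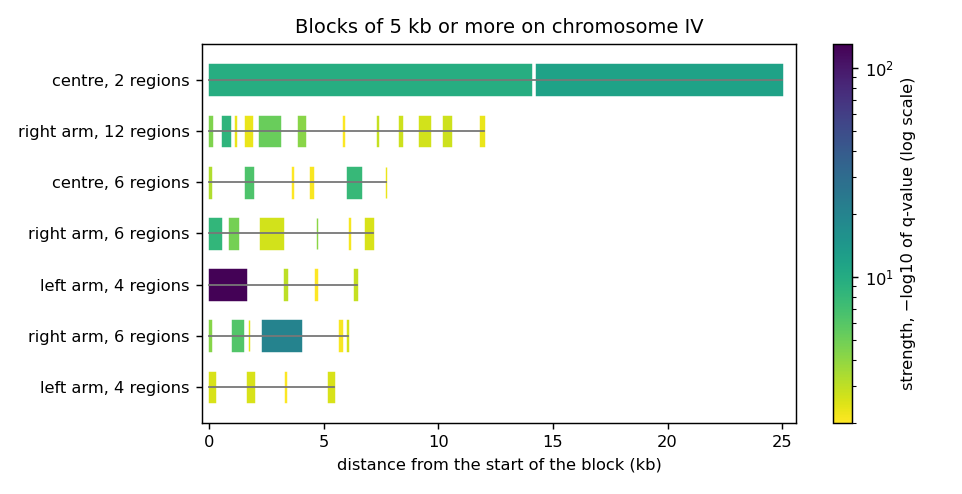
The 7 blocks of 5 kb or more on IV, longest at the top, drawn by distance from the block's start in kb. Boxes are regions coloured by strength (log scale) and grey lines are the gaps of up to 2 kb between them. The top block is filled to 99.1% by 2 regions, and the others are filled to between 15.5% and 40.2%.

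The pair of widest regions governed how many bases each zone had covered. Its 24.8 kb made up 10.2% of all covered bases of IV and 18.3% of those in the centre. With the pair, 1.31% of the left arm, 1.25% of the right arm and 1.49% of the centre was covered. Without it, the centre had 1.22% covered, below both arms. Covered bases thus ranked the zones differently from region counts, and that ranking rested on 2 regions.

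As background for the piRNA genes, a gene table of assembly WBcel235 lists 14714 of 15363 piRNA genes (95.8%) on IV. General maps of the worm place them in 2 broad groups, which were taken here as windows of 4.5 to 7 Mb in the centre and 13.5 to 17 Mb in the right arm. These limits follow common knowledge at a step of 0.5 Mb and not an annotation of WS180, so the windows are approximate. The window in the centre held 64.0 regions per Mb, against 53.1 in the rest of the centre, a ratio of 1.21 (95% interval 0.993 to 1.46). That ratio was 0.842 in the better 50% of the q-values and 0.983 at a limit 10 times stricter. The window in the right arm held 50.6 per Mb, against 65.6 in the rest of that arm, a ratio of 0.771 (0.577 to 1.04), or 1.02 with the window shortened by 0.5 Mb at both ends. Both intervals hold 1. The rest of the right arm was uneven, with 82 regions per Mb at 13 to 13.5 Mb and 47.7 per Mb from 17 Mb to the end of the span. Regions in the window of the centre had a median strength of 3.00 (95% interval 2.82 to 3.19), against 3.498 in the rest of the centre (3.25 to 3.77). In the right arm the medians were 3.02 inside (2.89 to 3.36) and 3.22 outside (3.14 to 3.55). Of the 12 gaps above 100 kb, 2 lay in the window of the centre and 5 in that of the right arm, which is every such gap of the right arm. The windows make up 27.6% of the length of the centre and 77.9% of that of the right arm. The longest gap of IV lay in the window of the centre. The share among the best 10% of the list was 6.88% inside and 7.74% outside in the centre, and 7.34% inside and 6.15% outside in the right arm.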

How the data were processed

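The labels describe 2 ChIP and 2 input samples of strain OP120, crosslinked with 2% formaldehyde and quenched with 100 mM Tris. The authors deposited 1 list of regions with a q-value (adjusted p-value) for each. Per the file headers, coordinates are of WormBase WS180 and the caller was PeakSeq, which sets ChIP against input. The q-value stands in 2 fields, which differed in 0 regions. How reads were aligned, filtered and combined over replicates is not given in these sources, nor is the version of the caller. A q-value depends on read depth besides enrichment, and the depth behind the deposited values is unknown.

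Regions on IV were taken by name of the chromosome and assigned to zones by midpoint. The borders, 3.896 and 12.970 Mb, came with the definition of the zones, without a release. Width counts both end bases, a gap is the stretch between neighbouring regions, and blocks join gaps of up to 2000 bp. The span ends at the last region. Shares have 95% Wilson intervals, density ratios conditional exact binomial intervals, and medians binomial order-statistic intervals. For a difference of medians, the outer limits of both medians' intervals were combined, which is wider than a 95% interval of the difference. Functions were tested on simulated data. The software was scipy 1.17.1, pandas 2.3.3 and numpy 2.4.6 under Python 3.11.15, with matplotlib 3.10.9 for plots.

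Zones, lists and regions to name were chosen with earlier results of these data known. Named were the 10 strongest and 5 widest regions, the 3 strongest of each zone, those next to the borders, the longest gaps and blocks and the most crowded windows. Alternatives were the better 50% of the q-values, a limit 10 times stricter, joined regions, lists without regions under 20 bp, other borders, distances and limits, and covered bases. No chance test was run. Sequences and genes were not analysed here.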

Additional observations from a re-analysis of the deposited data

How the results depend on the processing

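Of 78 alternative values, 56 stayed within the interval of the value as reported or within 1.5 times a count, and 22 moved beyond it. Among the 55 alternatives for ratios and differences, 10 lay on the other side of 1 or 0 from the value as reported, and for 9 of these the interval already held 1 or 0. The higher density of the left arm over the centre held under 9 of 11 alternatives (1.16 to 1.32), but covered bases gave 0.875, and 1.07 without the 2 widest regions, which make up 18.3% of the bases covered in the centre. The share of the list on IV was 13.8% in the better 50% of the q-values, 14.6% at a limit 10 times stricter and 16.38% by covered bases. The share with a neighbour within 5 kb was 29.8% in the better 50%, 41.1% at the stricter limit, 52.7% and 31.8% after joining within 500 and 2000 bp, 53.95% without regions under 20 bp, and 31.5% and 77.0% at 2 and 10 kb. Gaps above 100 kb numbered 32 in the better 50% and 26 at the stricter limit, while 70 exceeded 50 kb and 1 exceeded 150 kb. Blocks of 5 kb or more numbered 1 in the better 50%, 1 at the stricter limit and 1 with gaps of up to 1 kb joined, and 66 with gaps of up to 5 kb. The piRNA window of the centre had a density ratio of 0.842 in the better 50% and 0.983 at the stricter limit, so its side depended on weak regions; the window of the right arm stayed within its interval, at 1.02 when shortened. Differences in median strength and width stayed within their intervals, which hold 0, and changed sign under some alternatives. These intervals combine the outer limits of both medians' intervals, so they are wide and easily hold 0. Covered bases without the 2 widest regions, and the left arm without the first 1 Mb (1.22), were chosen after seeing the data. The causes of the moves were not tested, except that stricter limits and joining leave fewer regions. No paired analysis was possible because each region has a single q-value for all samples, and for that reason no replicate was left out in turn either. Depth is unknown and limits every statement about weak or missing regions.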

Other observations

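The strengths of neighbouring regions on IV were hardly correlated. Between neighbours separated by up to 2 kb, the Spearman rho of their strengths was −0.06 (207 pairs). For gaps of 2 to 20 kb it was −0.02 (536 pairs), and for longer gaps 0.01 (289 pairs). These are descriptions across regions of 1 list, and weak coefficients in such data are no finding of their own.

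The 24 regions that flank the 12 gaps above 100 kb were narrow, with a median width of 66.5 bp, against 176 bp for the other 1009 regions of IV. Their median strength was 3.04, against 3.25. Of the 24, 2 were among the best 10% of the list, namely the regions that follow the gaps of 140.6 kb (strength 13.04) and of 113.4 kb (strength 19.1) in the right arm. Within 50 kb beyond the ends of these gaps there were 2 to 10 regions, with a median of 4. This comparison was chosen after the values were seen and was not tested.

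Across the 17 full megabases of IV, the number of regions and their median strength had a Spearman rho of −0.39, and the number and the median width one of −0.02. The points share 1 list and 1 depth. The median strength per megabase ran from 2.90 at 14 to 15 Mb to 3.73 at 11 to 12 Mb.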
